A study of Mus musculus with 14 samples.

Results

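Expression of 10 genes of the Notch pathway was followed in cultured mouse epidermal cells, namely the receptor genes Notch1, Notch2 and Notch3, the ligand genes Jag1, Jag2 and Dll1, the nuclear factor gene Rbpj with its coactivator gene Maml1, the target gene Hes1, and Numb, whose product acts on the receptor. They were taken by gene symbol from a table of raw read counts per gene, where all 10 of the 10 were found among 55228 symbols, and all 10 passed the filter on low counts that left 11757 genes for testing. The cells carried the alleles Lrig1CreER and Rosa-TdTomato in every library. In such mice a Cre recombinase expressed from the Lrig1 gene, a gene of upper hair follicle progenitors, switches on a red fluorescent protein in those cells and their progeny. Cells positive for the surface antigen Sca1 were sorted from tail epidermis at the time point labelled 8w pw1, with no treatment stated, and were grown for 1 week before RNA was taken. The cells of interest came from the distal memory region (6 libraries, in sets of 2 and 4), and the comparison cells came from a control region described as non-memory (8 libraries, in sets of 6 and 2); the sets are those numbered in the sample descriptions, and what sets them apart is not stated. The study asks what cells far from an injury retain of it, and here they were measured after they had left the tissue. No label says that libraries came from separate animals or cultures. The p-values set the difference between regions against the spread among these libraries, which may be technical variation alone, and they may therefore be too small.

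Notch receptors are membrane proteins that are cut after a ligand on a neighbouring cell pulls on them, first by an ADAM protease and then by gamma-secretase. The freed intracellular part enters the nucleus, joins RBPJ and a Mastermind protein such as MAML1, and switches on genes that include repressors of the Hes and Hey families. In mouse epidermis the pathway is known for promoting the exit of keratinocytes from the basal layer and for shaping the hair follicle. Numb is known from the fly as an inhibitor that steers the receptor into endocytosis.

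Total counts were 2137934 to 4513518 in distal and 4515646 to 7458872 in control libraries, and every distal library was shallower than every control library, so depth and region cannot be told apart. Summed keratinocyte markers (9 genes, all with counts) stood at 17632 to 23339 CPM (counts scaled to a common library total by TMM) in distal and 13055 to 16923 CPM in control libraries. Of the 8 tested markers in that sum 3 were higher and 4 lower in distal cells: Krt5, Krt14 and Itgb4 rose and carry the sum, while Trp63 (90.3 to 126 CPM in distal and 182 to 234 CPM in control libraries) and Itga6 (220 to 313 CPM in distal and 401 to 735 CPM in control libraries) fell without overlap, as did Epcam and Perp with overlap. Lrig1 stood at 64.6 to 90.5 CPM in distal and 25.9 to 58.3 CPM in control libraries, and Ly6a, which encodes Sca1, stood at 1224 to 1632 CPM in distal and 1235 to 2582 CPM in control libraries. Markers of endothelial cells, mural cells, leukocytes, melanocytes and Merkel cells each summed to at most 11.2 CPM in any library. No count was found for 3 of 7 endothelial markers (Cdh5, Emcn, Cldn5), 1 of 6 mural (Kcnj8), 5 of 8 leukocyte (Cd3e, Cd3g, Trdc, Cd207, Tyrobp), 2 of 6 melanocyte (Dct, Sox10) and 4 of 5 Merkel cell markers (Krt20, Atoh1, Sox2, Isl1). Fibroblast markers reached 92.9 CPM in distal replicate 3 and 243 CPM in control replicate 1 and at most 15.6 CPM elsewhere. A trend with base composition ran through all genes and touches each value below, as well as the marker levels above, which are as counted. The tested genes were put into 5 equal classes by the GC content of their transcripts. In the class with the highest GC content 67.2% of genes were higher in distal cells, with a median log2 fold change of 1.09, and in the lowest class the median was -0.89. Each change is therefore given as counted and again with the trend of each library on GC content and length removed.

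Jag1 stood far above the other members. Per kilobase of the longest annotated transcript, Jag1 was highest in both regions, at 671 ± 315 CPM per kb in distal cells (SD, n = 6) and 1208 ± 437 CPM per kb in control cells (SD, n = 8). By CPM it was the 14th most abundant of 22301 genes with a count in distal cells and the 6th of 24850 in control cells. Jag1 alone took 0.246% to 0.632% of all counts in distal and 0.411% to 1.05% in control libraries, and of the per-kilobase level of the 3 ligands it made 94.5% to 98.7% in distal and 98.8% to 99.5% in control libraries. Hes1 followed at 73.03 ± 9.61 CPM per kb in distal and 105 ± 19.3 CPM per kb in control cells (SD). Notch1 and Notch2 came next and changed places: in distal cells Notch1 averaged 55.2 and Notch2 42.2 CPM per kb, with overlapping libraries, whereas in control cells Notch1 averaged 28.6 and Notch2 73.7 CPM per kb, with no overlap. Jag2 was next in distal cells, at 13.8 CPM per kb. Numb, Dll1, Maml1, Rbpj and Notch3 lay between 1.34 and 6.10 CPM per kb in distal cells and, with Jag2, between 0.997 and 6.08 CPM per kb in control cells. Neighbours in that lower stretch overlapped, except that every control library of Dll1 lay above every control library of Notch3 on this scale. With the length of all exons in place of the longest transcript, Notch1 and Notch2 exchanged ranks in distal cells, as did several of the low genes.

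Of the 10 members, 7 passed the threshold (edgeR quasi-likelihood test, Benjamini-Hochberg adjusted p under 0.05 over all tested genes), 3 higher and 4 lower in distal cells. The background is high: 48.3% of all tested genes passed, 24.3% higher and 24.1% lower. Notch1, Jag2 and Dll1 rose, Notch2, Jag1, Rbpj and Hes1 fell, and Notch3, Maml1 and Numb did not pass. For none of the 10 were the libraries of the regions fully separate, against 18.3% of all tested genes (12.7% higher and 5.65% lower). The median log2 fold change was 0.21 over the members and -0.16 over all tested genes. With upper-quartile scaling, which moves the median of all genes to 0.00, the split was 4 higher and 3 lower, as Maml1 passed and Hes1 did not. That scaling moved all tested genes the same way, to 3255 higher and 2202 lower, from 2853 and 2828 with TMM. In bulk RNA, fewer cells that make a transcript and less of it per cell cannot be told apart.

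**Figure D1:**
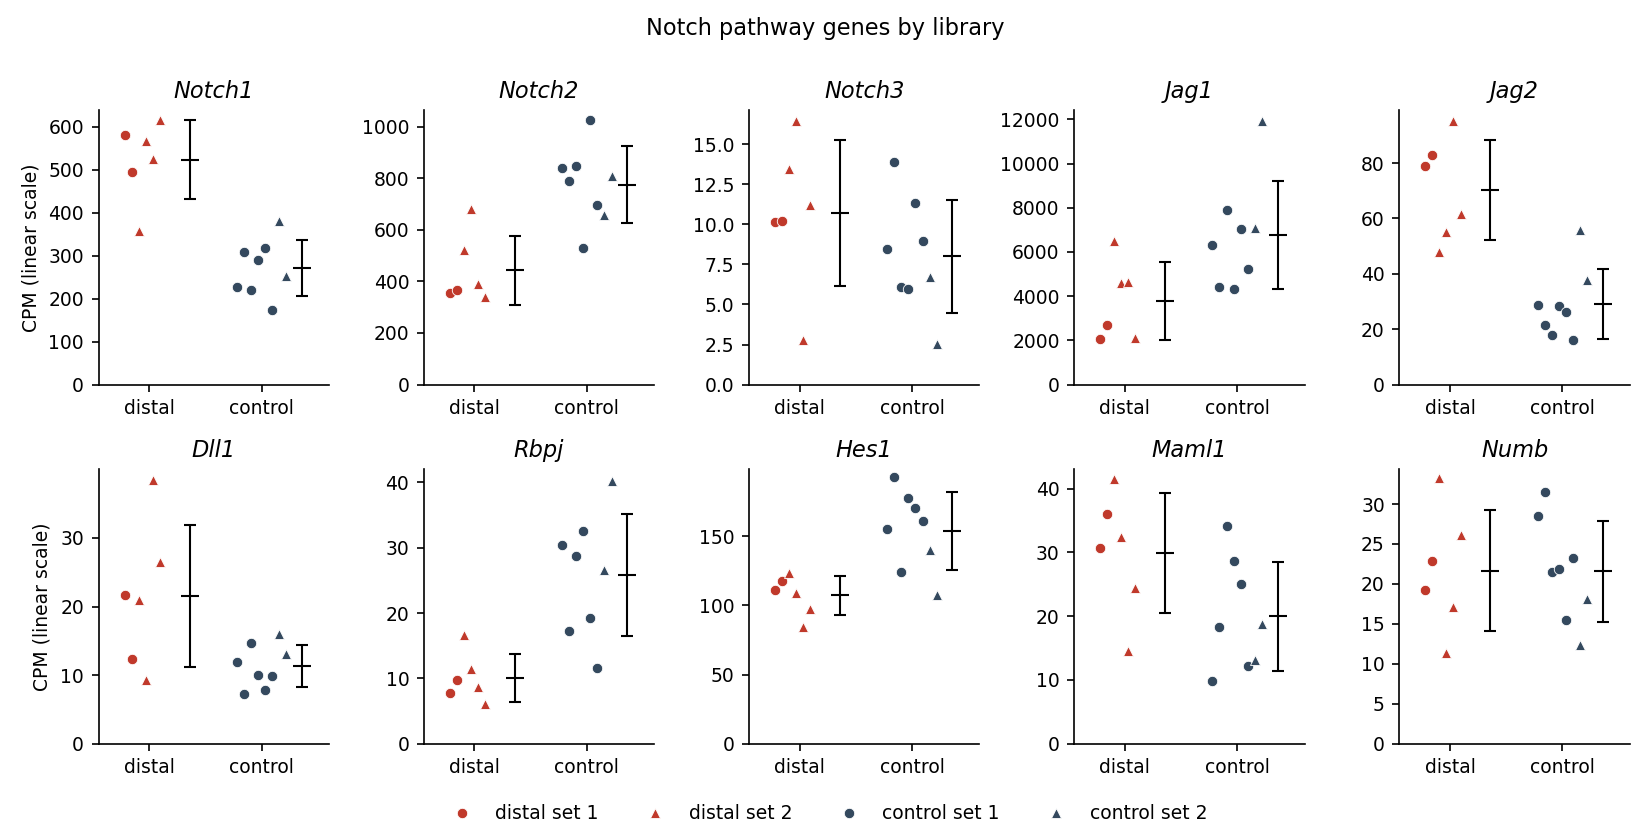
Level of each gene in CPM (linear axis from 0) in every library, distal left and control right; circles are set 1, triangles set 2, and the bar to the right of each group is the mean ± SD. Notch1 (means 524 and 271 CPM), Jag2 and Dll1 lie higher in distal libraries, Notch2 (443 and 774 CPM), Jag1, Rbpj and Hes1 lower, and the groups overlap in every panel.

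For orientation, the 250 bases before the RefSeq start site (GRCm38.p6) are shown for the receptor and ligand pairs that moved in opposite directions and for Rbpj, with the core letters of the RBPJ motif, TGGGAA or TTCCCA on the other strand, in capitals.
Notch1, chr2:26503823-26504072, minus strand: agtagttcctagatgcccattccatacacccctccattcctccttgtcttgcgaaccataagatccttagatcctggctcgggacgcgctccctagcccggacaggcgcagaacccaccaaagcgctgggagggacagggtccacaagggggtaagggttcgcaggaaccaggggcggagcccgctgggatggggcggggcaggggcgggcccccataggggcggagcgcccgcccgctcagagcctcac
Notch2, chr3:98013288-98013537, plus strand: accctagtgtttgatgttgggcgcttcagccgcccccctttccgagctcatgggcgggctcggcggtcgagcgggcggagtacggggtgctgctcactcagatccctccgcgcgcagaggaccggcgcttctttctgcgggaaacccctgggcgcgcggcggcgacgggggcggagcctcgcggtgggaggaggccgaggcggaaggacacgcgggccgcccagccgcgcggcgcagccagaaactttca
Jag1, chr2:137116521-137116770, minus strand: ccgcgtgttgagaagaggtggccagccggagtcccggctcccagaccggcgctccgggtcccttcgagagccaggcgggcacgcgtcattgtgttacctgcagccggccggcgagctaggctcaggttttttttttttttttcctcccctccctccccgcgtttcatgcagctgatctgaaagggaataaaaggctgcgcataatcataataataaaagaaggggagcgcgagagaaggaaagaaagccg
Jag2, chr12:112929496-112929745, minus strand: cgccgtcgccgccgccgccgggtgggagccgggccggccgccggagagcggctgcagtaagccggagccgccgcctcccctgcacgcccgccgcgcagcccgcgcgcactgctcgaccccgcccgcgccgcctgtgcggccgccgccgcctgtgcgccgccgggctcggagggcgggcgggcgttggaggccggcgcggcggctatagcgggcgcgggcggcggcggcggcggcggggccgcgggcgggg
Rbpj, chr5:53590096-53590345, plus strand: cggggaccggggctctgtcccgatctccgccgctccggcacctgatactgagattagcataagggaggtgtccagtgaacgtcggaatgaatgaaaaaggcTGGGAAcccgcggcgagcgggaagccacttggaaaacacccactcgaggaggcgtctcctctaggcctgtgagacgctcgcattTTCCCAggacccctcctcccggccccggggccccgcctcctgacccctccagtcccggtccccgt
The RefSeq table held 9 of the 10 members (all but Hes1), with 13 start sites. The core was found at the 2 start sites of Rbpj, whose windows overlap and share 1 copy, and not in the windows of the other members. Among all 32851 start sites 21.6% held it in a window of the same length. In the window shown, Rbpj has 2 copies of the core, beginning 149 and 65 bases before the start. A longer form of the motif, GTGGGAA, was in no window of the members, Rbpj included, and in 5.42% of all start sites. Binding of RBPJ at these windows was not tested. The windows differ in base composition, from 57.2% GC for Jag1 to 87.2% for Jag2, with 66.0% for Notch1, 72.0% for Notch2 and 65.2% for Rbpj.

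Notch1 encodes the receptor most studied in mouse epidermis (chromosome 2, 26457903 to 26516663, GRCm38, protein coding). It ranged from 357 to 616 CPM in distal libraries (median 547) and from 175 to 380 CPM in control libraries (median 272). In 5 of the 6 distal libraries the level was above all control libraries, and distal replicate 3 lay inside the control range. Distal over control, the log2 fold change came to 0.95 ± 0.17 (SE over libraries; edgeR-adjusted p = 0.000229). Its transcripts are rich in GC (57.7%), and once the trend on GC content and length was removed it stood at -0.0041 ± 0.14 (edgeR-adjusted p = 0.99). When the longest transcript of each gene supplied GC content and length, an alternative chosen after seeing the data, it stood at 0.27 ± 0.13 (edgeR-adjusted p = 0.16). The GC content of Notch1 hardly differs between the median and the longest transcript (57.7% and 57.1%), but its length does (406 and 9488 bases). Lengths also differ for Notch3 (717 and 8016 bases), Jag2 (739 and 5106 bases) and Dll1 (738 and 3581 bases).

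Notch2 is the paralogous receptor gene (chromosome 3, 98013527 to 98150361) and moved the other way. It ranged from 341 to 679 CPM in distal (median 380) and from 529 to 1028 CPM in control libraries (median 799). Levels in 5 of the 6 distal libraries were below all control libraries, and distal replicate 4, at 679 CPM, lay inside the control range. Its log2 fold change was -0.81 ± 0.18 (SE; edgeR-adjusted p = 0.0015), and -1.42 ± 0.22 (edgeR-adjusted p = 0.00025) with the trend removed or -1.14 ± 0.19 (edgeR-adjusted p = 0.00042) with the longest transcript. When the counts of each set were added up, the call was lost (-0.67, edgeR-adjusted p = 0.11). The unnamed gene Gm42820 shares 541 exon bases with Notch2 on the same strand but had 525 counts over all libraries, against 44093 for Notch2.

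Notch3 (chromosome 17, 32120820 to 32166852), a receptor best known from vascular mural cells, was near the floor of these libraries. It had 10 to 72 reads per distal library and 12 to 75 per control library, or 2.81 to 16.4 CPM and 2.53 to 13.9 CPM. The log2 fold change of 0.42 ± 0.38 (SE) did not pass (edgeR-adjusted p = 0.37), and it was -0.65 ± 0.41 with the trend removed (edgeR-adjusted p = 0.29). Summed mural cell markers were 0.561 to 11.2 CPM in distal and 0 to 2.22 CPM in control libraries, and their part in the Notch3 value was not tested.

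Jag1, a ligand of all 3 receptors (chromosome 2, 137081456 to 137116644), fell in distal cells on a wide spread. It ranged from 2072 to 6495 CPM in distal (median 3645) and from 4329 to 11912 CPM in control libraries (median 6675). Distal replicates 1, 2 and 6 lay below every control library, at 2072, 2680 and 2121 CPM, and distal replicates 3, 4 and 5, at 6495, 4611 and 4622 CPM, lay inside the control range. Replicates 1, 2 and 6 are also the 3 shallowest libraries, and the values of the deep libraries alone are given below. On the log2 scale the difference was -0.85 ± 0.28 (SE; edgeR-adjusted p = 0.019). The call was lost without distal replicate 1 (-0.66, edgeR-adjusted p = 0.057), distal replicate 2 (-0.70, edgeR-adjusted p = 0.052) or distal replicate 6 (-0.66, edgeR-adjusted p = 0.056), with the trend removed (-0.50 ± 0.27, edgeR-adjusted p = 0.22), and with the counts of each set added up (-0.96, edgeR-adjusted p = 0.12).

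Jag2, the paralogous ligand gene (chromosome 12, 112907819 to 112929776), rose. It ranged from 48.0 to 95.1 CPM in distal (median 70.4) and from 16.2 to 55.7 CPM in control libraries (median 27.3). In 4 of the 6 distal libraries it exceeded all control libraries, and only control replicate 7, at 55.7 CPM, reached into the distal range. As counted its rise was the largest of the 10, by 1.27 ± 0.25 on the log2 scale (SE; edgeR-adjusted p = 0.00052). Jag2 also has the highest GC content of the 10 (60.8%), and without the trend it stood at 0.16 ± 0.21 (edgeR-adjusted p = 0.64).

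Dll1, a Delta ligand that in human epidermis marks clusters of stem cells (chromosome 17, 15367354 to 15376872), rose on few reads. It had 34 to 137 reads per distal library and 39 to 99 per control library, which gave 9.35 to 38.4 CPM (median 21.3) in distal and 7.22 to 16.0 CPM (median 10.98) in control libraries. The values of 4 of the 6 distal libraries exceeded all control libraries and the other 2 fell inside the control range. It differed by 0.92 ± 0.30 on the log2 scale (SE; edgeR-adjusted p = 0.016), and -0.06 ± 0.29 with the trend removed (edgeR-adjusted p = 0.91). With the counts of each set added up it did not pass (0.83, edgeR-adjusted p = 0.12). The noncoding gene A930024N18Rik on the opposite strand covers 20.6% of the exon bases of Dll1, and no counts are listed under its symbol. The strand setting of the counting is not known here, so reads of the 2 genes cannot be told apart.

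Rbpj encodes the DNA-binding protein that the mammalian Notch receptors act through (chromosome 5, 53466152 to 53657362), and its start site is the one with copies of the short core shown above. It ranged from 6.02 to 16.6 CPM in distal (median 9.26) and from 11.5 to 40.3 CPM in control libraries (median 27.7). In 5 of the 6 distal libraries it was below all control libraries. As counted its fall was the largest of the 10, at -1.35 ± 0.30 on the log2 scale (SE; edgeR-adjusted p = 0.0013). Its transcripts are poor in GC (43.9%), and it stood at -0.56 ± 0.24 with the trend removed (edgeR-adjusted p = 0.12) and at -0.62 ± 0.25 with the longest transcript (edgeR-adjusted p = 0.095).

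Maml1, the coactivator that joins the receptor and RBPJ on DNA (chromosome 11, 50255634 to 50292311), ranged from 14.6 to 41.4 CPM in distal and from 9.80 to 34.1 CPM in control libraries. The difference of 0.58 ± 0.29 on the log2 scale (SE) did not pass (edgeR-adjusted p = 0.11). It did pass without control replicate 3 (0.73, edgeR-adjusted p = 0.044) or distal replicate 5 (0.82, edgeR-adjusted p = 0.027). Without the trend it was at 0.12 ± 0.31 (edgeR-adjusted p = 0.82).

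Hes1, the repressor gene that the receptor complex switches on directly (chromosome 16, 30064384 to 30067796), fell by a small amount with a narrow spread. It ranged from 84.4 to 123 CPM in distal (median 110) and from 108 to 193 CPM in control libraries (median 158). Of the 8 control libraries 7 were above all distal libraries, and control replicate 8, the lowest at 108 CPM, lay inside the distal range. The difference was -0.52 ± 0.15 on the log2 scale (SE; edgeR-adjusted p = 0.0086). It no longer passed without distal replicate 5 (-0.35, edgeR-adjusted p = 0.080) or distal replicate 6 (-0.40, edgeR-adjusted p = 0.059), with upper-quartile scaling (-0.36, edgeR-adjusted p = 0.070), with counts thinned to the smallest total (-0.35, edgeR-adjusted p = 0.055), or with the counts of each set added up (-0.25, edgeR-adjusted p = 0.51). Removal of the trend made the fall larger, at -1.59 ± 0.17 (edgeR-adjusted p = 1.1e-05). In trend-removed log2 CPM Hes1 then ran from 5.80 to 6.58 in distal and from 7.29 to 8.17 in control libraries, with no overlap. The size of that step rests on how a gene's GC content and length are summarised. Over the transcripts of Hes1 the medians are 59.6% and 529.5 bases, but the longest has 50.7% and 1468 bases. With the longest transcripts the log2 fold change was -0.76 ± 0.14 (edgeR-adjusted p = 0.00081), again without overlap.

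Numb (chromosome 12, 83794034 to 83921934) showed the same mean in both regions, 21.7 ± 7.58 CPM in distal cells (SD, n = 6) and 21.6 ± 6.34 CPM in control cells (SD, n = 8). Distal libraries spanned 11.4 to 33.2 CPM and control libraries 12.4 to 31.5 CPM. The difference was 0.0051 ± 0.26 on the log2 scale (SE; edgeR-adjusted p = 0.99), and 0.037 ± 0.25 with the trend removed (edgeR-adjusted p = 0.94). The sign of the difference turned in 10 alternative settings, among them the size factors of DESeq2.

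**Figure D2:**
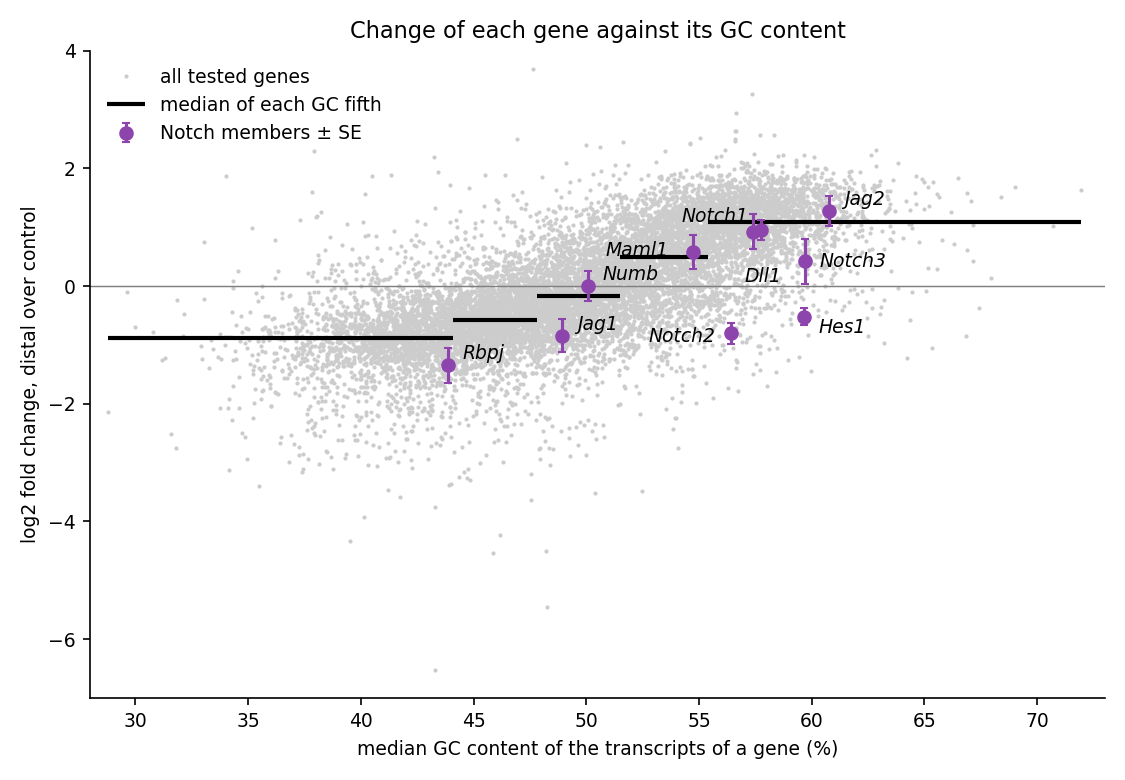
Log2 fold change (distal over control) of each tested gene against the median GC content of its transcripts; grey points are all genes, black lines the medians of 5 equal classes by GC content, and purple points the 10 members with their SE. Jag2 (1.27), Notch1 (0.95) and Dll1 (0.92) lie near 1.09, the median of the highest class, Notch2 (-0.81) and Hes1 (-0.52) lie below 0 in that same class, and Rbpj (-1.35) lies below -0.89, the median of the lowest class.

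By median GC content 6 of the 10 members are in the highest class (55.4% to 71.9%). Of these 6, Notch1, Jag2 and Dll1 rose, as did 67.2% of the 2327 genes of that class, and Notch3 did not pass. Notch2 and Hes1 fell, which only 44 of the 2327 genes (1.89%) did. By the longest transcript both are in the next class down instead (50.5% to 54.7%), where 38.0% of genes rose and 6.06% fell. After removal of the trend 18.9% of tested genes passed (10.4% higher and 8.55% lower), and so did 2 of the 10 members, Notch2 and Hes1, both lower. None rose then by edgeR, also at an unadjusted p under 0.05, where Rbpj joined the 2 that fell. The same 2 and no other member passed with the longest transcripts, where 18.8% of tested genes did. At an unadjusted p under 0.05 Jag1 and Rbpj were also lower and Notch1 was higher in that form. The share of all genes at the unadjusted threshold is not given for either form. Fully separate libraries were then found for Hes1 alone among the 10, in both forms of the removal, against 6.86% and 6.98% of all tested genes.

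**Figure D3:**
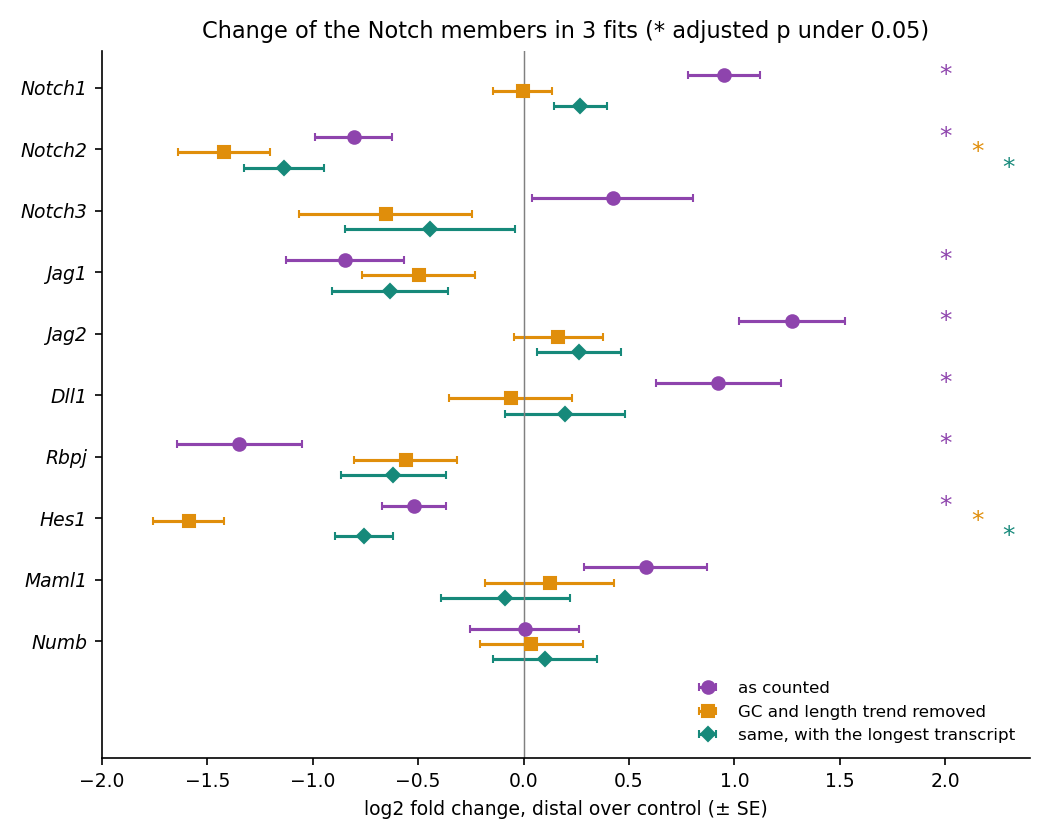
Log2 fold change (distal over control, ± SE) of each member as counted (purple circles), with the GC and length trend of each library removed (orange squares), and the same with the longest transcript of each gene (green diamonds); stars of the same colour mark an adjusted p under 0.05. Notch2 and Hes1 carry 3 stars each, and Notch1, Jag2 and Dll1 move to between -0.06 and 0.27 when the trend is removed.

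Depth and sets set further limits. In the libraries over 4000000 counts, 8 control and 2 distal, none of the 10 passed in edgeR, where 1243 of all genes did, and 3 (Notch1, Jag2 and Maml1, all higher) had an unadjusted p under 0.05. There Jag1 stood at -0.27, Notch2 at -0.35 and Notch1 at 0.79 on the log2 scale (edgeR-adjusted p = 0.65, 0.36 and 0.061). That setting also leaves 2 distal libraries. After thinning, which keeps all 14 libraries at the total of the shallowest, 4 members were higher and 3 lower. Of all genes 5190 passed, 2928 higher and 2262 lower. Notch1 was then at 1.08, Notch2 at -0.68 and Jag1 at -0.75 (edgeR-adjusted p = 4.8e-05, 0.0031 and 0.018). Without control set 1, which leaves 2 control libraries, Jag1 (-1.31) and Rbpj (-1.69) were the 2 members that passed in edgeR (adjusted p = 0.043 and 0.016). Of all genes 2267 passed there, 1195 higher and 1072 lower. An unadjusted p under 0.05 was found for 5 members, while Hes1 stood at -0.18 (edgeR-adjusted p = 0.57). How many of all genes had an unadjusted p under 0.05 is not given for this setting or for the deep libraries. The unadjusted member counts therefore have no background beside them. Jag1 no longer passed without control set 2 (-0.57, edgeR-adjusted p = 0.066) or distal set 1 (-0.54, edgeR-adjusted p = 0.15). Neither Hes1 (-0.42) nor Dll1 (0.60) passed without distal set 2 (edgeR-adjusted p = 0.16 and 0.26).

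Ratios within a library do not depend on its scaling, and both were chosen after their values were seen, so no test is given. The ratio of Notch1 to Notch2 per kilobase was 0.758 to 1.998 in distal (median 1.49) and 0.278 to 0.642 in control libraries (median 0.345). The ratio of Jag1 to Jag2 per kilobase was 23.9 to 123 in distal (median 37.7) and 116 to 398 in control libraries (median 222). For the receptors the libraries of the regions were thus fully separate, with distal ones higher, and for the ligands only distal replicate 3, at 123, reached into the control range. Without the trend the ratios were taken from log2 CPM not divided by length, so their size cannot be set beside the ratios per kilobase. The log2 receptor ratio was then -0.67 to 0.71 in distal and -2.14 to -0.65 in control libraries, which overlap at the edge. The log2 ligand ratio was 5.81 to 7.60 in distal and 6.69 to 7.99 in control libraries.

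**Figure D4:**
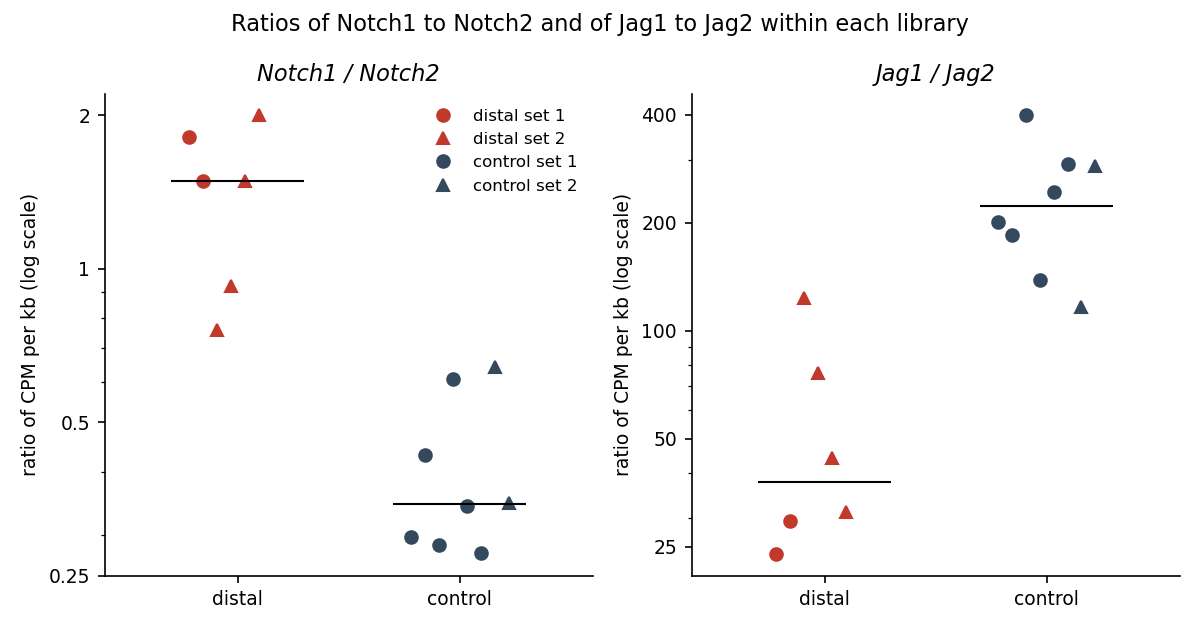
Ratio of Notch1 to Notch2 (left) and of Jag1 to Jag2 (right) in CPM per kb, on log axes, in each distal and control library; circles are set 1, triangles set 2, and lines the medians. Distal libraries lie above control libraries for the receptors (medians 1.49 and 0.345) and mostly below them for the ligands (medians 37.7 and 222).

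The sets inside each region bear on how far the regions can be separated, since no set holds both regions. Between distal set 2 and distal set 1 no member passed (edgeR, 0 of 10; 0 of all 11757 genes), and 921 genes, among them Jag1, had an unadjusted p under 0.05. Jag1 averaged 4462 ± 1794 CPM in distal set 2 (SD, n = 4) and 2376 ± 430 CPM in distal set 1 (SD, n = 2). They differed by 0.91 ± 0.37 on the log2 scale (SE; edgeR-adjusted p = 0.61). Between control set 2 and control set 1 no member passed either, and 969 genes, Jag1 and Jag2 among them, had an unadjusted p under 0.05. Jag2 averaged 46.7 ± 12.7 CPM in control set 2 (SD, n = 2) and 23.2 ± 5.36 CPM in control set 1 (SD, n = 6), a difference of 1.01 ± 0.29 on the log2 scale (SE; edgeR-adjusted p = 0.47). Both set means of Jag1 in distal cells (2376 and 4462 CPM) were below both set means in control cells (5867 and 9509 CPM).

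Around the 10 members, 65 other genes of the pathway were listed by role, of which 52 were tested. Of the 52, 13 rose and 14 fell, which is 51.9% against the 48.3% of all tested genes, and their median log2 fold change was -0.14. Once the trend was removed 2 rose and 9 fell, 21.2% against 18.9% of all genes. With the longest transcripts 3 rose and 7 fell. As counted, 11 of the 52 (21.2%) had libraries without overlap, against 18.3% of all tested genes. The counts by role below rest on few genes each and stand beside these same shares of all genes.

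**Figure D5:**
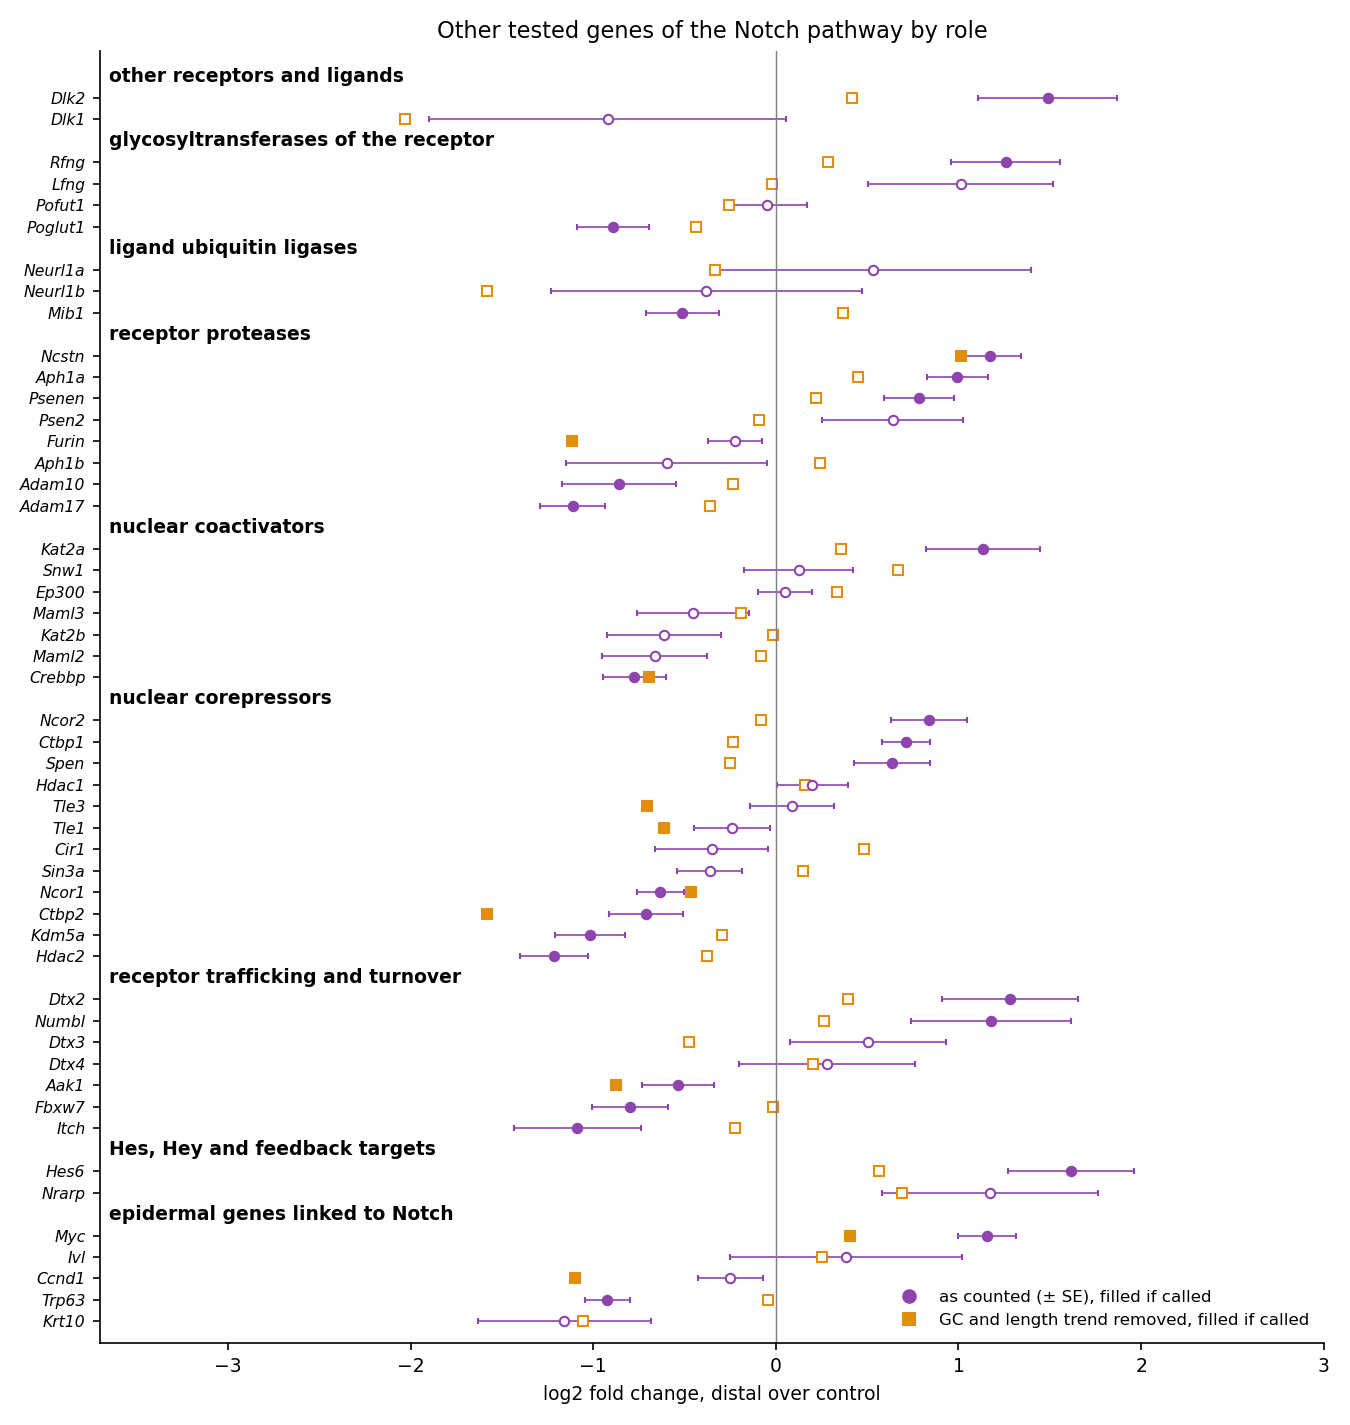
Log2 fold change (distal over control) of 50 tested genes beyond the members, grouped by role; purple circles are the values as counted with their SE, orange squares those with the GC and length trend removed, and filled symbols mark an adjusted p under 0.05. Ncstn (1.17 and 1.02), Crebbp (-0.78 and -0.69) and Ctbp2 (-0.71 and -1.58) are among those filled on the same side in both.

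Among other receptors and ligands, Dll4 had no read in any library. Notch4 had 13 reads over the distal and 5 over the control libraries, and Dll3 had 0 and 4. Dlk2, a Delta-like membrane protein gene, rose (17.0 ± 8.26 CPM in distal and 6.02 ± 2.87 CPM in control cells, SD), by 1.49 ± 0.38 on the log2 scale (SE; edgeR-adjusted p = 0.0037), and stood at 0.42 with the trend removed (edgeR-adjusted p = 0.44). Dlk1 did not pass (edgeR-adjusted p = 0.45); its highest value was 39.4 CPM in 1 control library. Of the enzymes that put sugars on the receptor, Rfng rose by 1.26 and Poglut1 fell by 0.89 on the log2 scale (edgeR-adjusted p = 0.0023 and 0.0014), Lfng at 1.01 and Pofut1 at -0.05 did not pass (edgeR-adjusted p = 0.11 and 0.87), and Mfng had no read. Of the ubiquitin ligases that activate ligands, Mib1 fell by 0.51 (edgeR-adjusted p = 0.044) but stood at 0.37 with the trend removed (edgeR-adjusted p = 0.11), Neurl1a and Neurl1b did not pass (edgeR-adjusted p = 0.63 and 0.73), and Mib2 was below the filter. None of the tested genes in these groups passed with the trend removed.

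Of the proteases that cut the receptor, 3 of 9 rose and 2 fell as counted, and 1 rose and 1 fell with the trend removed. Of all tested genes 48.3% passed as counted and 18.9% with the trend removed. Ncstn, the gamma-secretase subunit that docks substrates, averaged 177 ± 33.5 CPM in distal cells (SD, n = 6) and 78.6 ± 17.4 CPM in control cells (SD, n = 8). The libraries of the regions did not overlap, and the rise was 1.17 ± 0.17 on the log2 scale (SE; edgeR-adjusted p = 2.5e-05). Without the trend it was at 1.02 ± 0.15 (edgeR-adjusted p = 0.00016), again without overlap, and with the longest transcripts at 0.84 ± 0.14 (edgeR-adjusted p = 0.00046). The subunit genes Aph1a (0.99) and Psenen (0.78) also rose without overlap (edgeR-adjusted p = 0.00011 and 0.0027), but neither passed with the trend removed (0.45 and 0.22, edgeR-adjusted p = 0.055 and 0.47). Of the ADAM proteases that make the first cleavage, Adam17 fell by 1.11 and Adam10 by 0.86 on the log2 scale (edgeR-adjusted p = 8.2e-05 and 0.030), and neither passed with the trend removed (edgeR-adjusted p = 0.21 and 0.55). Adam10 and Furin, which trims the receptor before it reaches the surface, were added after their values were seen. Furin did not pass as counted (-0.22, edgeR-adjusted p = 0.21) but passed with the trend removed (-1.12, edgeR-adjusted p = 0.00011) and with the longest transcripts (-0.91, edgeR-adjusted p = 0.00029).

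In the nucleus, 1 of 7 coactivator genes rose and 1 fell. Kat2a, an acetyltransferase gene, rose by 1.13 (edgeR-adjusted p = 0.0062) and stood at 0.36 with the trend removed (edgeR-adjusted p = 0.39). Crebbp, which encodes the acetyltransferase CBP, averaged 153 ± 35.5 CPM in distal and 262 ± 59.2 CPM in control cells (SD). It fell by 0.78 on the log2 scale (edgeR-adjusted p = 0.0014) and by 0.69 with the trend removed (edgeR-adjusted p = 0.0099) or 0.85 with the longest transcripts (edgeR-adjusted p = 0.0031). Maml2 and Kat2b did not pass (-0.66 and -0.61, edgeR-adjusted p = 0.062 and 0.11). Of 12 corepressor genes 3 rose and 4 fell as counted, and none rose and 4 fell with the trend removed. Hdac2 (-1.22), Kdm5a (-1.02) and Ncor1 (-0.63) fell and Ctbp1 (0.71) rose, each with an edgeR-adjusted p of at most 0.00065, and of the 4 only Ncor1 passed with the trend removed (-0.47, edgeR-adjusted p = 0.011), while Hdac2 stood at -0.38 (edgeR-adjusted p = 0.081). With the longest transcripts it was the reverse, as Hdac2 passed (-0.51, edgeR-adjusted p = 0.016) and Ncor1 did not (-0.27, edgeR-adjusted p = 0.12). Ctbp2, the paralog of Ctbp1 that was added after its values were seen, fell by 0.71 as counted (edgeR-adjusted p = 0.0077), by 1.58 with the trend removed (edgeR-adjusted p = 0.00017) and by 1.39 with the longest transcripts (edgeR-adjusted p = 0.00038).

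Among genes that act on receptor turnover, 2 of 7 rose and 3 fell. Dtx2, a Deltex ubiquitin ligase gene, rose by 1.28, while the ubiquitin ligase genes Itch and Fbxw7 fell by 1.09 and 0.80 and the Numb kinase gene Aak1 by 0.54 (edgeR-adjusted p = 0.0084, 0.016, 0.0042 and 0.033). Aak1 alone of these passed with the trend removed (-0.87, edgeR-adjusted p = 0.0045), but at 0.10 with the longest transcripts it had turned its sign and did not pass (edgeR-adjusted p = 0.77).

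Of the target group, Hes5, Hey1 and Heyl had no read in any library, and Hes7 and Hey2 had 0 in distal libraries and 1 and 3 in control libraries. Hes6, a relative of Hes1 known to oppose it, rose without overlap, at 17.1 ± 4.99 CPM in distal and 5.53 ± 2.62 CPM in control cells (SD). The rise was 1.62 ± 0.34 on the log2 scale (SE; edgeR-adjusted p = 0.00095), against 0.57 with the trend removed (edgeR-adjusted p = 0.21). Nrarp, a feedback inhibitor gene, had 71 distal and 67 control reads in all and did not pass (1.17, edgeR-adjusted p = 0.11). Of the Hes and Hey genes listed, Hes1 and Hes6 were the ones that passed the filter on low counts.

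Of epidermal genes linked to the pathway, 1 of 6 tested rose and 2 fell. Trp63, the p63 gene that maintains basal keratinocytes, averaged 110 ± 14.1 CPM in distal and 208 ± 17.8 CPM in control cells (SD), without overlap, and fell by 0.92 on the log2 scale (edgeR-adjusted p = 1.5e-05). Without the trend it was at -0.043 (edgeR-adjusted p = 0.87). Myc, a growth regulator gene, rose by 1.16 (edgeR-adjusted p = 2.0e-05) and by 0.41 with the trend removed (edgeR-adjusted p = 0.043). The suprabasal keratin gene Krt10 stood at -1.16 and did not pass as counted (edgeR-adjusted p = 0.051) or with the trend removed (-1.05, edgeR-adjusted p = 0.13), but passed with the longest transcripts (-1.79, edgeR-adjusted p = 0.012). Krt1 and Lor were below the filter.

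The genes whose pattern over the 14 libraries was closest to a member were found by the root mean square difference of log2 CPM, each gene centred on its own mean, among 8511 expressed named genes. For Notch1 these were Snrpa (0.16), Aopep (0.19) and Smurf1 (0.19), where the median over all genes was 0.79. For Jag1 they were Lgr4 (0.20), Bcap29 (0.21) and Yme1l1 (0.21), with a median of 0.84, and for Hes1 they were Srrm1 (0.16), Hint1 (0.18) and Afdn (0.18), with a median of 0.63. Among the members themselves the closest pairs were Notch1 with Jag2 (0.40), Notch2 with Hes1 (0.41) and Notch2 with Jag1 (0.42). All these values share the same libraries and the same GC trend and are given as a description.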

How the data were processed

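RNA from small pools of sorted, cultured cells was, per the labels' protocols, amplified by Smart-seq2 and sequenced as Nextera XT libraries. The authors deposited raw counts per gene symbol for 14 libraries, aligned with HISAT2 and counted with featureCounts on mm10/GRCm38, per the submitters' processing notes. Strand setting and the handling of reads that match several genes are not given in the sources used here. The fit used edgeR 4.0.16 under R 4.3.3, with filterByExpr as the filter on low counts, TMM scaling (also in CPM) and the robust two-sided quasi-likelihood F test. Log2 fold changes are distal over control, and their SE is their size over the root of F. DESeq2 1.42.0 and limma 3.58.1 (voom) were alternatives, beside other scalings, other filters on low counts, sums per set, thinned counts, a replicate block, deep libraries alone, and each library or set left out. For the trend removal, log2 CPM (prior count 2), centred per gene, was in each library fitted on natural splines (4 degrees of freedom each) of the median GC content and log2 length of a gene's transcripts (GENCODE annotation of GRCm38), and the fit entered as offsets; 98.9% of tested genes had a GC value. The code was tested on simulated counts. No libraries were merged: between the 23 pairs of libraries inside sets, chi-square per degree of freedom ran from 6.83 to 40.0. The members and gene lists were chosen with earlier results of these data known. Named beyond the members were up to 4 genes of each role with the smallest p, groups of 5 or fewer in full, the 3 nearest genes in pattern to Notch1, Jag1 and Hes1, and exceptions marked in the text. Of the other pathway genes, 2 are not reported here by name but stay in the counts.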

Additional observations from a re-analysis of the deposited data

Results flagged for a closer look

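Jag1 in control replicate 8 stood at 11912 CPM, far above the other 7 control libraries, of which the highest was 7913 CPM. Its gap to them was 0.527 of the group's range, just past the critical value of Dixon's test for 8 samples. It was the 1 value set apart among 20 groups looked at (10 genes in 2 regions), and about 1 in 20 such groups is set apart by chance. Without that library the log2 fold change of Jag1 was -0.61 (edgeR adjusted p = 0.044). The same library was the highest control library for Rbpj (40.3 CPM) and the lowest for Hes1 (108 CPM) and Notch3 (2.53 CPM).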

How the results depend on the processing

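Named settings are those of the methods. All genes: 5681 passed as counted, 2784 with counts summed per set, 2202 with the trend removed (2190 with the longest transcripts), 39 with the trend removed and counts summed per set, 1243 in libraries over 4000000 counts and 2267 without control set 1. Members: 3 rose and 4 fell as counted, 2 rose and 1 fell with counts summed per set, 0 rose and 2 fell with the trend removed in either form, 0 and 0 with the trend removed and counts summed, 0 and 0 in deep libraries, and 0 and 2 without control set 1. Other pathway genes: 27 as counted, against 12, 11, 10, 0, 6 and 8 in the order summed, trend removed, longest transcripts, trend removed with sums, deep libraries, and without control set 1. Leaving out 1 library at a time gave 4911 to 5842 genes, 3 to 4 members higher, 2 to 4 lower and 23 to 30 other pathway genes; the count of 2 lower came without distal replicate 6. No member passed between the sets of a region in any setting run (0 to 0). With the trend removed and counts summed, Notch2 was at -1.39 and Hes1 at -1.45 (edgeR adjusted p = 0.053 and 0.052).

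Signs turned with the trend removed for Notch1 (-0.0041), Notch3 (-0.65) and Dll1 (-0.062), with the longest transcripts for Notch3 (-0.44) and Maml1 (-0.086), and with the trend removed and counts summed for Notch1 (-0.092), Notch3 (-0.44), Jag2 (-0.047) and Dll1 (-0.23). Numb turned with DESeq2's size factors (-0.014), DESeq2 (-0.014), limma-voom (-0.024), no filter (-0.039), the stricter filter (-0.0094), the replicate block (-0.17), and without control set 2 (-0.037) or distal set 2 (-0.035); leaving out 1 library it ran from -0.052 to 0.25. The cause of these moves was not tested.

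Libraries of the 2 regions that share a replicate number, taken from the titles, showed little likeness. Their deviations correlated at -0.017 to 0.11, with 1 of 6 pairs above 0.1 and 2 of 6 matching best with their own number. The sample descriptions number the libraries differently, within sets. Pairing by those numbers was not tested, so whether libraries were paired is not known. The replicate block, by the numbers of the titles, gave 5442 genes, 3 members higher and 4 lower, and 25 other pathway genes. Depth limits Notch3, Dll1 and Rbpj most, with 10 to 137 reads in distal libraries.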
